A study of Macaca mulatta with 60 samples.

Results

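The miRNA transcripts described here are the 51 array transcripts whose entry in the 8 published lists of BPA responsive heart transcripts (4 chambers, 2 gestational windows) names a miRNA or gives only the word miRNA for a predicted one, without those of miR-205, miR-224 and miR-452. They were 51 of 579 listed transcripts and of 26149 transcripts on the arrays. Of the 51, 26 carried 25 distinct miRNA names, because mml-mir-554 described 2 transcripts, and 25 were described only as predicted miRNAs without a name, called unnamed miRNAs below. The members were thus selected on their BPA against control values in the listing tissue, and those values are given as a description with no test.

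miRNAs are short regulatory RNAs cut from hairpin precursors by Drosha in the nucleus and Dicer in the cytoplasm. The mature strand guides an Argonaute complex to mRNAs that pair with its seed, and the mRNA is then repressed or degraded. In heart and skeletal muscle the mir-1, mir-133 and mir-208 families are known for their part in muscle development. Many miRNA genes lie in clusters or in introns of protein coding genes and are transcribed as part of a longer RNA, and the array probes and labelled cDNA of the kind used here do not tell a mature miRNA from its precursor or its host transcript.

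Transcript levels came from 60 arrays of both ventricles (left, LV, and right, RV), both atria (left, LA, and right, RA) and biceps femoris (BFM, a skeletal muscle) of 12 female rhesus monkey (Macaca mulatta) fetuses. The dams took a piece of fruit each day with bisphenol A (BPA, 400 µg/kg body weight, in ethanol) or with ethanol alone, either in early gestation (EG, day 50 to day 100) or in late gestation (LG, day 100 to term). Each group held 3 fetuses, numbered 1 to 3 in EG control, 4 to 6 in EG BPA, 7 to 9 in LG control and 10 to 12 in LG BPA, and a number is the same fetus in every tissue. EG fetuses were delivered by caesarian section and LG fetuses vaginally before necropsy, so gestational age and mode of delivery cannot be told apart in any comparison of LG with EG.

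Values are log2 intensities, and a log2 fold change (LFC) is a difference between the means of 2 groups. Each tissue was normalized on its own, ventricular cDNA was unamplified and atrial cDNA was amplified, so levels were compared only within a tissue and for the same transcript. A small RNA had 1 or 2 probes on the array. A difference was called where the LFC was at least 1 in size and the unadjusted p of the limma fit was at most 0.01. These are the criteria the study states for its lists, though the RA lists hold only the larger of the changes past them. As these are bulk tissue samples, fewer cells of a type and less RNA per cell cannot be told apart. As a check of the tissue labels, the cardiac alpha myosin Myh6 lay between 14.30 and 14.96 on the 24 atrial arrays and between 6.28 and 10.60 in BFM, where it is not a defining gene, and ranged from 5.56 to 14.43 in LV and from 5.51 to 14.23 in RV.

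Most of the miRNA transcripts gave low and variable signals in every tissue. The median of the 12 arrays lay below the middle of all transcripts for 40 (LV), 41 (RV), 43 (LA), 41 (RA) and 40 (BFM) of the 51. A position among the array's values describes the signal of a probe set and not the abundance of an RNA. ENSMMUT00000049334, an unnamed miRNA, was the member with the highest signal, with its median at the 92.2 to 99.4 percentile of the array in the 5 tissues. mml-mir-562 had its median at the 0.44 to 5.04 percentile, and mml-mir-16-2 lay lower than it in LA (1.298) and RA (2.21).

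The spread between fetuses of 1 group was wider for the miRNA transcripts than for the arrays as a whole. Small RNAs had fewer probes than most other transcripts on the arrays. The figures over all transcripts were not split by number of probes, and its part in the spread was not tested. Over members not listed in the tissue, the median within-group SD was 0.52 in BFM (0.26 over all transcripts), 0.75 in RA (0.34), 0.63 in LA (0.31), 0.71 in RV (0.41) and 1.66 in LV (0.58). A larger share of them also passed the variation filter before testing, for which the interquartile range had to reach 0.5. Among unlisted members, 31 of 33 passed in LV (93.9%), 25 of 31 in RV (80.6%), 25 of 35 in LA (71.4%), 40 of 49 in RA (81.6%) and 32 of 51 in BFM (62.7%). The shares over all transcripts were 67.4, 46.0, 30.2, 35.7 and 32.9% in the same order. In all, 22 of the 51 were tested in all 5 tissues.

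mml-mir-133c belongs to the mir-133 family, which is enriched in cardiac and skeletal muscle, and its probes sat at the low end of the arrays in all 5 tissues. Its median lay at the 6.61 percentile of the array or below in each of them. In BFM its 12 values ran from 4.54 to 5.94, in RA from 3.44 to 5.45, in LA from 3.42 to 4.89 and in RV from 3.57 to 5.17. EG and LG fetuses overlapped in each of these tissues. The LFC with gestation in controls was -0.16 in BFM, 0.15 in RA, -0.01 in LA and 0.10 in RV. In LV, the listing tissue of mml-mir-133c, the LFC of 3.02 is a description.

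Gestation was read in the control fetuses, as LG control minus EG control, to ask which miRNA transcripts differ in level between mid and late fetal life. Counted over the tissues that did not list them, 7 of the 51 transcripts passed the criteria in 9 of 153 tested pairs of transcript and tissue, 2 higher and 7 lower in LG. In BFM 4 of 32 tested transcripts were called (12.5%), where 26.6% of all tested transcripts were called. In RA 4 of 40 were called (10.0%, against 5.47% of all) and in LA 1 of 25 (4.00%, against 6.78%). In LV 0 of 31 and in RV 0 of 25 were called by limma, where the background was 2.95% and 6.68%, and the unadjusted limma p was at most 0.05 for 3 and 0 of them, against 10.6% and 20.0% of all tested transcripts. With so few calls, nothing is read from the miRNA shares against the background. The median LFC of the tested members was -0.14 in BFM, 0.00 in RA, -0.02 in LA, 0.02 in LV and -0.16 in RV, and that of all tested transcripts was -0.03, 0.09, -0.02, -0.08 and 0.09.

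**Figure D1:**
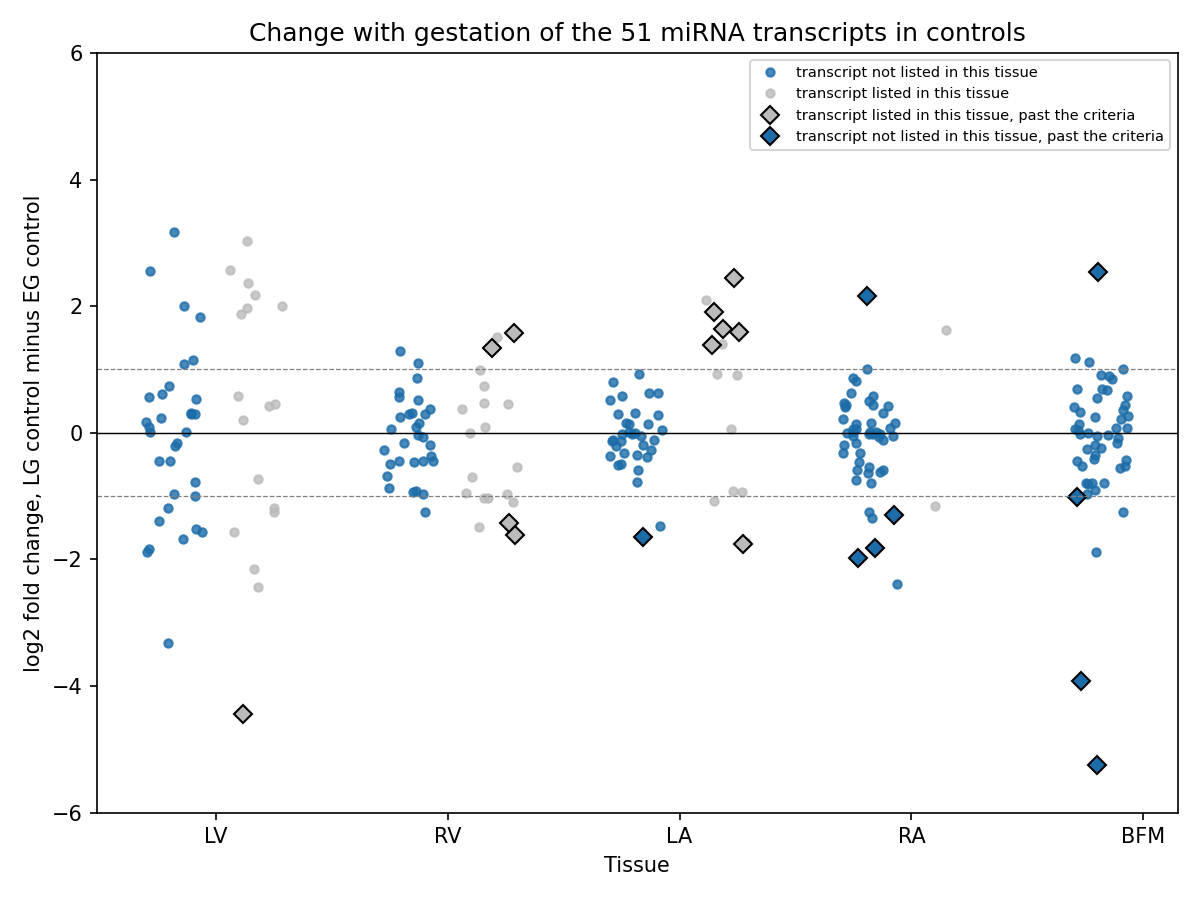
Change with gestation in control fetuses (y axis, LG control minus EG control, log2) of each of the 51 miRNA transcripts in the 5 tissues (x axis). Blue points are tissues that do not list the transcript, grey points tissues that do, diamonds are past the criteria, and dashed lines mark an LFC of 1 in size. The lowest blue diamond is mml-mir-487a in BFM at -5.24, followed by ENSMMUT00000049642 in BFM at -3.92.

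mml-mir-487a showed the largest change with gestation among the tested members, a fall in BFM. It belongs to a large miRNA cluster of the imprinted DLK1-DIO3 region, whose miRNAs are expressed from the maternal chromosome and are abundant in fetal tissue. In the RefSeq annotation of the T2T-MMU8v2.0 assembly MIR487A had 13 other miRNA genes within 10 kb, among them MIR134, MIR154, MIR377, MIR381, MIR382, MIR485, MIR487B and MIR539.

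In BFM the mml-mir-487a level was 11.04, 11.18 and 11.02 in EG control fetuses 1 to 3 and 5.21, 5.68 and 6.62 in LG control fetuses 7 to 9. In the BPA exposed fetuses it was 11.25, 11.31 and 11.10 in EG and 6.88, 5.25 and 8.06 in LG. All 6 EG fetuses were within 0.28 of each other and well above all 6 LG fetuses, which were spread over several log2 units. In controls the mean fell from 11.08 ± 0.09 to 5.84 ± 0.72 (SD, n = 3), an LFC of -5.24 (SE 0.57, limma adjusted p = 6.03e-05), or 37.9-fold lower. The exact two-sided permutation test of 3 against 3 fetuses gave 0.1, the smallest p that 10 splits allow. On the separate arrays of the BPA exposed fetuses the LFC was -4.49 (SE 0.57, limma adjusted p = 1.84e-04).

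The mml-mir-487a level in RA fell as well. It was 5.91, 6.78 and 7.10 in EG controls and 4.91, 4.12 and 4.84 in LG controls, so the groups did not overlap, and the LFC was -1.97 (SE 0.44, limma adjusted p = 0.0374). In BPA exposed fetuses the RA values were 6.47, 4.91 and 5.64 in EG and 4.41, 4.97 and 4.63 in LG, with 1 LG fetus above the lowest EG fetus and an LFC of -0.999 (SE 0.44, limma adjusted p = 0.318). In RV the controls held 3.78, 4.32 and 4.60 in EG and 3.44, 4.40 and 3.53 in LG, and in LA 4.52, 5.40 and 5.11 in EG and 5.36, 5.11 and 5.43 in LG. The control groups overlapped in both, and the LFC was -0.44 (SE 0.39) in RV and 0.29 (SE 0.46) in LA, where the transcript did not pass the filter on variation. In LV, its listing tissue, the LFC of 1.97 is a description.

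ENSMMUT00000049642, an unnamed miRNA listed in RV, gave the second large fall in BFM. Its BFM level was 10.33, 10.26 and 9.99 in EG controls and 6.86, 6.55 and 5.41 in LG controls. The BPA exposed fetuses held 10.41, 10.32 and 10.18 in EG and 7.18, 7.04 and 7.42 in LG. As for mml-mir-487a, all EG fetuses were close together and above all LG fetuses. The LFC was -3.92 in controls (SE 0.31, limma adjusted p = 1.12e-05, 15.1-fold lower) and -3.09 in BPA exposed fetuses (SE 0.31, limma adjusted p = 5.13e-05). In LA the controls were 5.21, 5.33 and 5.56 in EG and 6.36, 5.81 and 5.79 in LG, an LFC of 0.63 (SE 0.34, limma adjusted p = 0.401) in the other direction. In RA the mean went from 6.70 to 6.08 (LFC -0.62, SE 0.53, limma adjusted p = 0.670) and in LV from 5.87 to 4.87 (LFC -0.998, SE 0.85, limma adjusted p = 0.678), neither past the criteria.

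**Figure D2:**
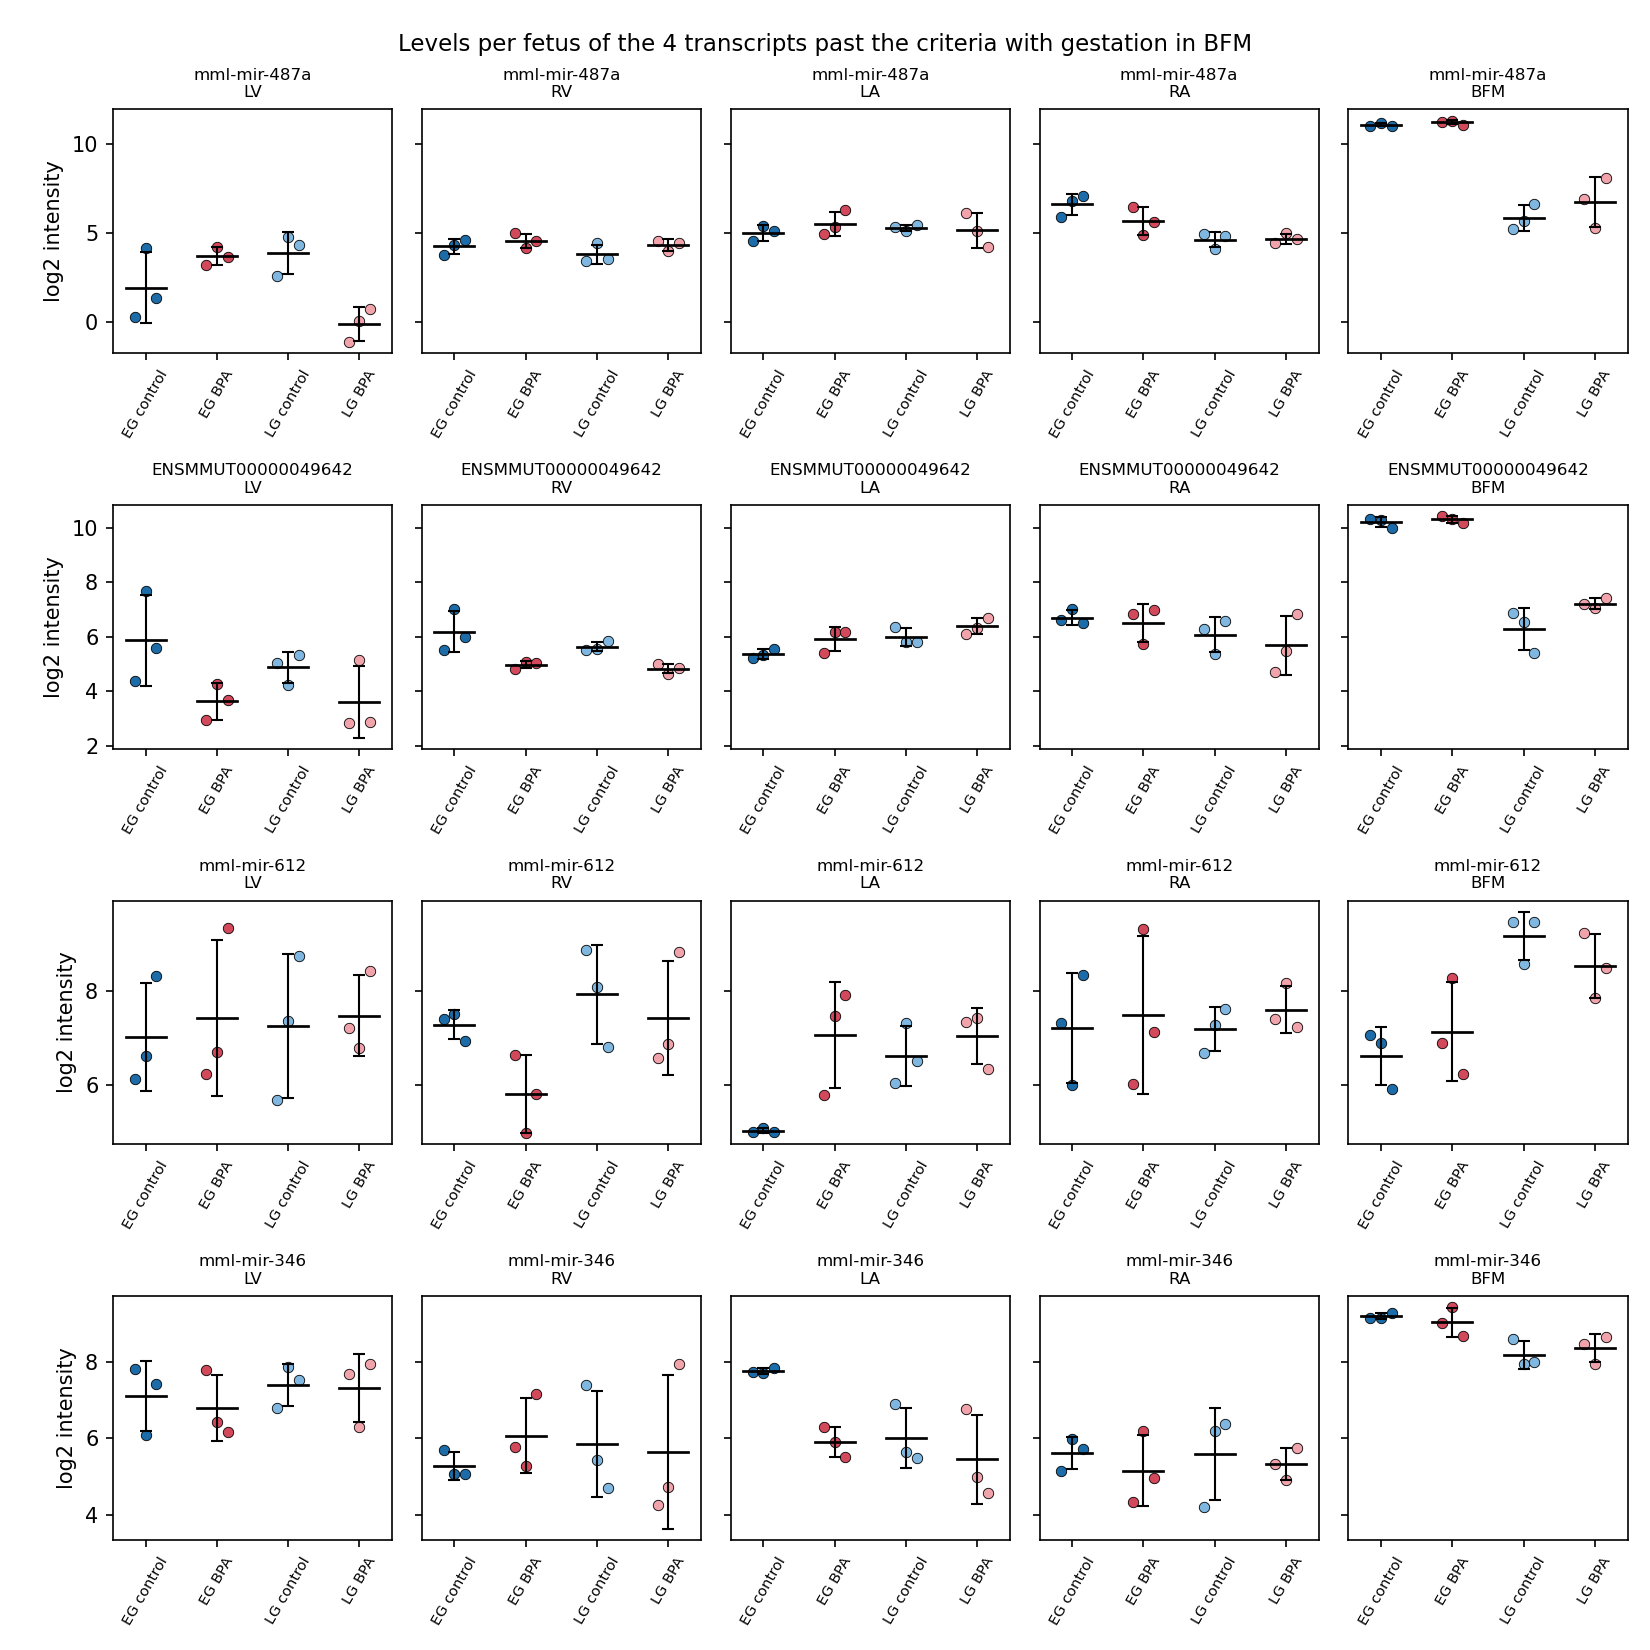
Log2 intensity (y axis) of mml-mir-487a, ENSMMUT00000049642, mml-mir-612 and mml-mir-346 (rows) in LV, RV, LA, RA and BFM (columns), with 1 point per fetus, the group mean as a bar and the SD as whiskers (n = 3). In BFM all 6 EG fetuses lie above all 6 LG fetuses for mml-mir-487a and ENSMMUT00000049642, and the y axis is shared within a row, though tissues were normalized separately and their levels are not comparable.

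The change with gestation in BFM was set against that in each chamber in 1 fit over the 24 arrays of both tissues. Over chambers that did not list the transcript, 8 of 133 tested pairs passed the criteria, from 4 transcripts, 2 higher and 6 lower in BFM than in the chamber. Against LV 2 of 32 were called (6.25%, background 6.21%), against RV 1 of 26 (3.85%, background 9.08%), against LA 2 of 30 (6.67%, background 9.61%) and against RA 3 of 45 (6.67%, background 9.30%). The change of mml-mir-487a in BFM minus that in RV was -4.80 (SE 0.68, limma adjusted p = 1.51e-04). The difference from RA was -3.27 (SE 0.73, limma adjusted p = 0.00967). From LA, where the LFC of mml-mir-487a was positive, it was -5.53 (SE 0.76, limma adjusted p = 1.27e-04). The change of ENSMMUT00000049642 in BFM minus that in RA was -3.30 (SE 0.64, limma adjusted p = 0.00315). Against LA, where its LFC was positive, the difference was -4.55 (SE 0.43, limma adjusted p = 9.44e-07). Its difference from LV, -2.92 (SE 0.94), missed an adjusted threshold (limma adjusted p = 0.118) and was lost with the fetus as a replicate block, with only the arrays compared and without fetus 1, 3, 7 or 9 (LFCs from -3.79 to -2.10).

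ENSMMUT00000050843, another unnamed miRNA, rose with gestation in BFM relative to LV by 2.73 (SE 0.88, limma adjusted p = 0.120), without passing the criteria in either tissue. In BFM it was 5.23, 5.86 and 5.69 in EG controls and 6.94, 6.19 and 6.21 in LG controls, and in LV 6.03, 5.97 and 5.53 against 4.48, 3.74 and 3.68. The LG controls were thus all higher in BFM and all lower in LV. The difference was lost when any 1 of the 6 control fetuses was left out, with LFCs from 2.45 to 2.93, and in the BPA exposed fetuses, where it was 0.49 (SE 0.88).

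mml-mir-612 was the one member called higher with gestation in BFM, where 15 of the 32 tested members had a positive LFC. It was 7.05, 6.89 and 5.91 in EG controls and 9.46, 8.57 and 9.46 in LG controls, with no overlap, an LFC of 2.55 (SE 0.53, limma adjusted p = 0.00267). In BPA exposed fetuses it was 6.89, 8.27 and 6.22 in EG and 9.22, 7.85 and 8.49 in LG, where 1 EG fetus lay above the lowest LG fetus and the LFC was 1.39 (SE 0.53, limma adjusted p = 0.0478).

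mml-mir-346, which lies within GRID1 in the RefSeq annotation, was lower in LG in BFM, and its change only just reached the fold threshold. It was 9.16, 9.15 and 9.29 in EG controls and 8.61, 7.95 and 8.00 in LG controls, an LFC of -1.01 (SE 0.26, limma adjusted p = 0.00871). The groups did not overlap, but the call was lost under a further quantile normalization, under median centring and without fetus 3, 8 or 9. In BPA exposed fetuses the LFC was -0.68 (SE 0.26, limma adjusted p = 0.0517).

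The other calls with gestation were in the atria. mml-mir-25 is made with mir-93 and mir-106b from an intron of the replication gene MCM7, and the RefSeq annotation places MIR93 and MIR106B beside it. In RA it was 6.22, 7.07 and 5.52 in EG controls and 3.66, 5.00 and 4.68 in LG controls, which did not overlap. The LFC was -1.82 (SE 0.54, limma adjusted p = 0.118), and the call was lost without fetus 1, 2 or 7. In BFM mml-mir-25 was level (5.39, 5.36 and 5.29 against 5.36, 5.43 and 5.88), and the change in BFM exceeded that in RA by 2.03 (SE 0.62, limma adjusted p = 0.0482). That difference was lost without fetus 1, 2, 7 or 9, with LFCs from 1.64 to 2.38, and in the BPA exposed fetuses. In BPA exposed fetuses the RA values were 5.82, 6.11 and 4.44 in EG and 5.50, 5.32 and 4.35 in LG, an LFC of -0.40 (SE 0.54) with overlapping groups.

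ENSMMUT00000049708, an unnamed miRNA, rose in RA from 4.45, 4.37 and 5.51 in EG controls to 7.42, 7.49 and 5.92 in LG controls. The groups did not overlap and the LFC was 2.17 (SE 0.54, limma adjusted p = 0.0585), against 1.16 (SE 0.54) in BPA exposed fetuses, where 5.18, 5.18 and 6.22 in EG overlapped 6.55, 5.93 and 7.59 in LG. The call was kept when each fetus was left out in turn.

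ENSMMUT00000050965, an unnamed miRNA listed in LV, had a negative control LFC of at least 1 in size in each of the 4 tissues that did not list it. In LA it was 8.31, 8.10 and 9.25 in EG controls and 7.31, 6.17 and 7.25 in LG controls, and in RA 8.44, 8.08 and 8.58 against 7.22, 6.41 and 7.57. Every LG control lay below every EG control in both atria. The LFC was -1.64 in LA (SE 0.44, limma adjusted p = 0.0640) and -1.30 in RA (SE 0.39, limma adjusted p = 0.118), and it was -1.25 in RV (SE 0.64) and -1.25 in BFM (SE 0.49, limma adjusted p = 0.0496), where the unadjusted criteria were not met, and -1.57 in LV as a description. The LA call was lost without fetus 3 or 8 and the RA call without fetus 1, 3 or 8.

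Of these 9 calls in controls, 9 had the same sign and a smaller LFC in the BPA exposed fetuses, and 2 were past the criteria there as well, those of mml-mir-487a and ENSMMUT00000049642 in BFM. These pairs were picked for passing in controls, and the difference between control and exposed fetuses was not tested. Over the same 153 pairs the exposed fetuses gave 3 calls, 2 of 32 in BFM (background 23.1%) and 1 of 25 in RV (background 6.49%). The RV call was mml-mir-135a-1, at 4.06, 3.66 and 3.70 in EG BPA and 6.14, 4.51 and 5.00 in LG BPA, with no overlap, an LFC of 1.41 (SE 0.43, limma adjusted p = 0.119). Its control LFC in RV was 0.25 (SE 0.43). No member was called with limma among 31 tested in LV (background 3.59%), 25 in LA (7.31%) and 40 in RA (5.91%), where 2, 3 and 2 had an unadjusted p of at most 0.05, against 12.3%, 18.3% and 14.4% of all tested transcripts.

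In the tissues that listed them, the change with gestation shares its control fetuses with the listed contrast and is a description. There 6 of 16 members were past the criteria in LA (background 6.78%), 4 of 20 in RV (6.68%), 1 of 18 in LV (2.95%) and 0 of 2 in RA (5.47%), and nothing is read from these counts.

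BPA was read, as BPA exposed minus control in each window, in the tissues that did not list the transcript. The lists hold all that passed the criteria in LV, RV and LA, so a member not listed there could not be called, and calls were possible in BFM and, for smaller changes, in RA. In BFM 1 of 32 tested members was called in EG (3.12%, background 0.267%) and 0 of 32 in LG (background 0.825%) by limma. In RA 0 of 40 were called in EG (background 0.439%) and 0 of 40 in LG (background 0.439%). The unadjusted limma p was at most 0.05 for 4 and 3 members in BFM, against 2.50% and 5.32% of all tested transcripts in EG and LG, and for 2 and 0 in RA, against 2.36% and 2.86%.

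The BFM call was ENSMMUT00000049389, an unnamed miRNA that the LA list also holds for EG. In BFM it was 8.25, 8.10 and 6.93 in EG controls and 6.12, 6.71 and 6.26 in EG BPA fetuses. All exposed fetuses were below all controls, with an LFC of -1.40 (SE 0.38, unadjusted p = 0.00353, limma adjusted p = 1.00, exact permutation p = 0.1). The call was lost without control fetus 1 or 2, with LFCs from -1.81 to -1.15 as each fetus was left out.

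In LA, ENSMMUT00000049389 was selected with 9.08, 8.11 and 9.75 in EG controls and 6.30, 5.55 and 6.64 in EG BPA fetuses (LFC -2.81). In RA it was 8.77, 8.47 and 8.25 in controls and 7.09, 7.69 and 7.60 in exposed fetuses, again with no overlap, an LFC of -1.04 (SE 0.62, limma adjusted p = 1.00). In RV the order was turned, with 6.15, 6.74 and 6.39 in controls and 8.22, 9.02 and 8.57 in exposed fetuses, an LFC of 2.18 (SE 0.92, limma adjusted p = 1.00). In LV the groups overlapped and the LFC was 0.44 (SE 1.28).

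The BPA changes of the listing tissue were matched in direction about as often as not in the other tissues, with splits that differed by tissue. For the 56 listed entries, the same transcript in the other 4 tissues in the same window had the direction of the listed change in 111 LFCs (49.6%) and the opposite direction in 113. With an LFC of at least 1 in size, 21 went the same way and 21 the opposite way, and the median LFC in the listed direction was -0.02. The listed direction was seen in 25 of 38 LFCs in LV, 19 of 40 in LA, 27 of 54 in RA, 27 of 56 in BFM and 13 of 36 in RV. In the listing tissue in the other window it was 29 of 56 (51.8%), made up of 16 of 20 in RV, 7 of 18 in LV, 5 of 16 in LA and 1 of 2 in RA. These splits were not tested. Values that another list holds are among these, since 5 transcripts are in 2 lists.

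**Figure D3:**
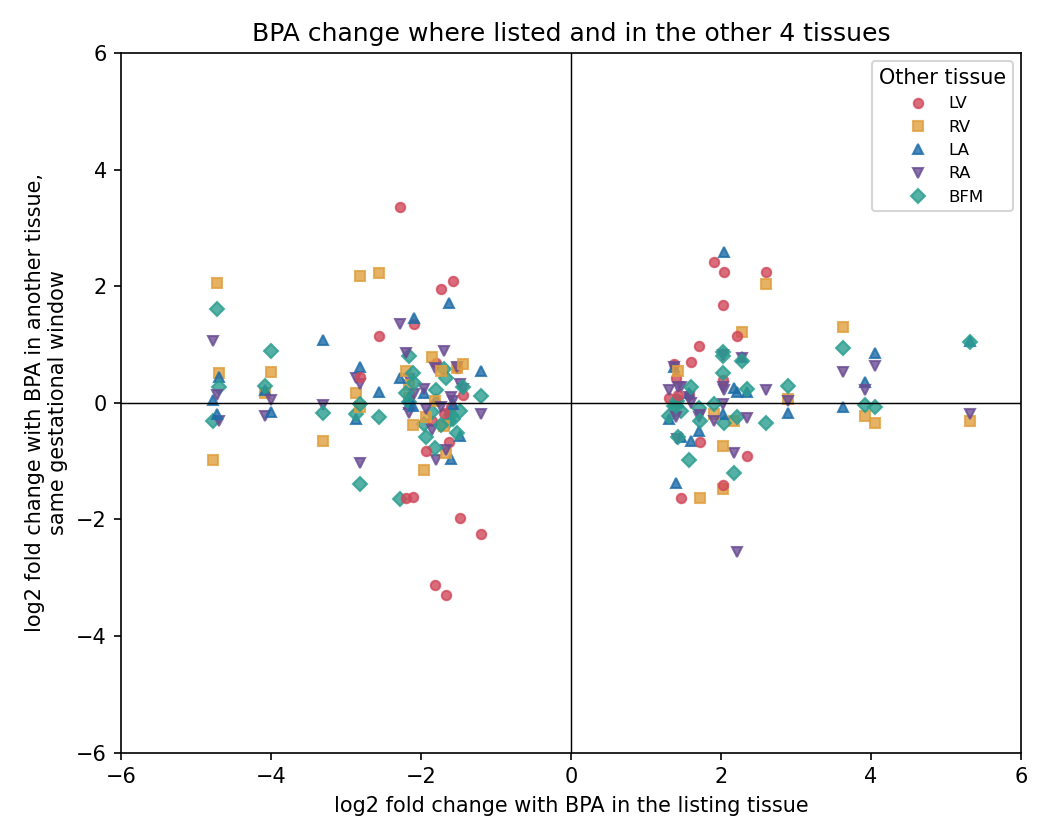
LFC with BPA in the listing tissue (x axis, log2) against the LFC of the same transcript in each of the other 4 tissues in the same window (y axis, log2), with 1 point per entry and tissue (colour and shape by the other tissue). The 111 points with the listed direction are at the lower left and the upper right, and the gap around 0 on the x axis comes from the criteria of the lists.

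Differences between single fetuses were weakly correlated between tissues. For each transcript, deviations from the group mean were correlated over the 12 fetuses between pairs of tissues and averaged. The mean correlation was over 0.3 for 0 of 51 miRNA transcripts and for 3924 of all 26149 (15.01%). The highest member was ENSMMUT00000049861 at 0.29, and the median was -0.0017 for members and 0.0716 for all transcripts. These correlations share arrays and fetuses and are given without a test.

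The listed BPA changes themselves, which chose the members, comprised 56 entries. They numbered 9 (EG) and 9 (LG) for LV, 11 and 9 for RV, 8 and 8 for LA, and 1 and 1 for RA. Of the 56, 25 were rises and 31 were falls. The share of all tested transcripts past the criteria was, for EG and LG, 0.925% and 0.84% (LV), 0.615% and 0.549% (RV), 0.582% and 1.09% (LA) and 0.439% and 0.439% (RA). The RA lists hold only the larger of these changes, so the RA shares are not those of the lists. When each of the 6 fetuses of the window was left out in turn, 46 of the 56 were lost or no longer tested at least once.

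The criteria of the lists bound the p and LFC of every entry, and the values nearest to them are given as a description. Those just inside were mml-mir-557 in LV EG (LFC -4.70, with an unadjusted limma p of 0.00994), mml-mir-18 in RV LG (LFC -2.28, 0.00986) and, by size, ENSMMUT00000049642 in RV EG (LFC -1.199). As each fetus of the window was left out, these LFCs ran from -5.97 to -2.86, from -2.83 to -1.78 and from -1.52 to -0.784. Just outside were ENSMMUT00000048424 in LA EG (LFC -1.98, with an unadjusted limma p of 0.0110) and ENSMMUT00000049835 in LV EG (LFC -1.88, 0.0147).

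Of the 5 transcripts in 2 lists, mml-mir-140 changed in opposite directions. mir-140 is known as a cartilage miRNA and lies within WWP2 in the RefSeq annotation. In RV EG it was 5.23, 6.49 and 5.27 in controls and 4.11, 4.34 and 3.64 in BPA exposed fetuses (LFC -1.63). In LA EG it was 4.43, 4.23 and 3.32 in controls and 4.48, 6.00 and 6.67 in BPA exposed fetuses (LFC 1.72). The exposed fetuses were all below the controls in RV and all above them in LA, where fetus 4 and control fetus 1 were nearly level. In RA and BFM the EG groups overlapped.

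mml-mir-554 ENSMMUT00000036920 was also listed in opposite directions. In RV EG it was 4.20, 3.93 and 4.32 in controls and 6.34, 7.72 and 5.04 in BPA exposed fetuses (LFC 2.22), and in RA EG 7.15, 9.35 and 6.82 against 4.79, 6.08 and 4.75 (LFC -2.57). No exposed fetus overlapped a control in either chamber. Among the 51 miRNA transcripts these were the largest rise of the RV EG list and the one entry of the RA EG list. The RV entry was past the criteria with all 6 fetuses but was lost without fetus 1, 2, 3, 4 or 5. Its LFCs ran from 1.54 to 2.88 as each of the 6 was left out. The RA entry was lost without fetus 2, 4 or 6.

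mml-mir-554 ENSMMUT00000049665, which 1 list names mml-mir-554 and another an unnamed miRNA, rose in both of its tissues. In RV EG it was 5.08, 4.53 and 5.43 in controls and 7.53, 7.46 and 6.18 in BPA exposed fetuses (LFC 2.04), and in LA EG 3.95, 4.74 and 3.97 against 7.30, 7.52 and 5.62 (LFC 2.59, the largest rise of the 51 in that list). In both tissues fetus 6 was the lowest of the exposed fetuses and still above all controls.

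ENSMMUT00000036839 and ENSMMUT00000050386, both unnamed miRNAs, kept their direction in a second tissue and window. ENSMMUT00000036839 was 5.31, 3.34 and 3.21 in controls and 5.98, 6.89 and 5.50 in BPA exposed fetuses in LV EG (LFC 2.17), and 4.28, 4.24 and 4.65 against 6.30, 5.22 and 7.72 in RV LG (LFC 2.02). ENSMMUT00000050386 was 5.20, 5.68 and 6.53 in controls and 4.07, 4.03 and 3.90 in exposed fetuses in RV EG (LFC -1.81, the largest fall of the 51 in that list), and 7.16, 5.76 and 6.83 against 4.80, 4.39 and 4.76 in LA LG (LFC -1.94). The groups did not overlap in any of the 4 comparisons, but these are the values that chose both transcripts. The EG and LG fetuses of each pair are different animals.

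**Figure D4:**
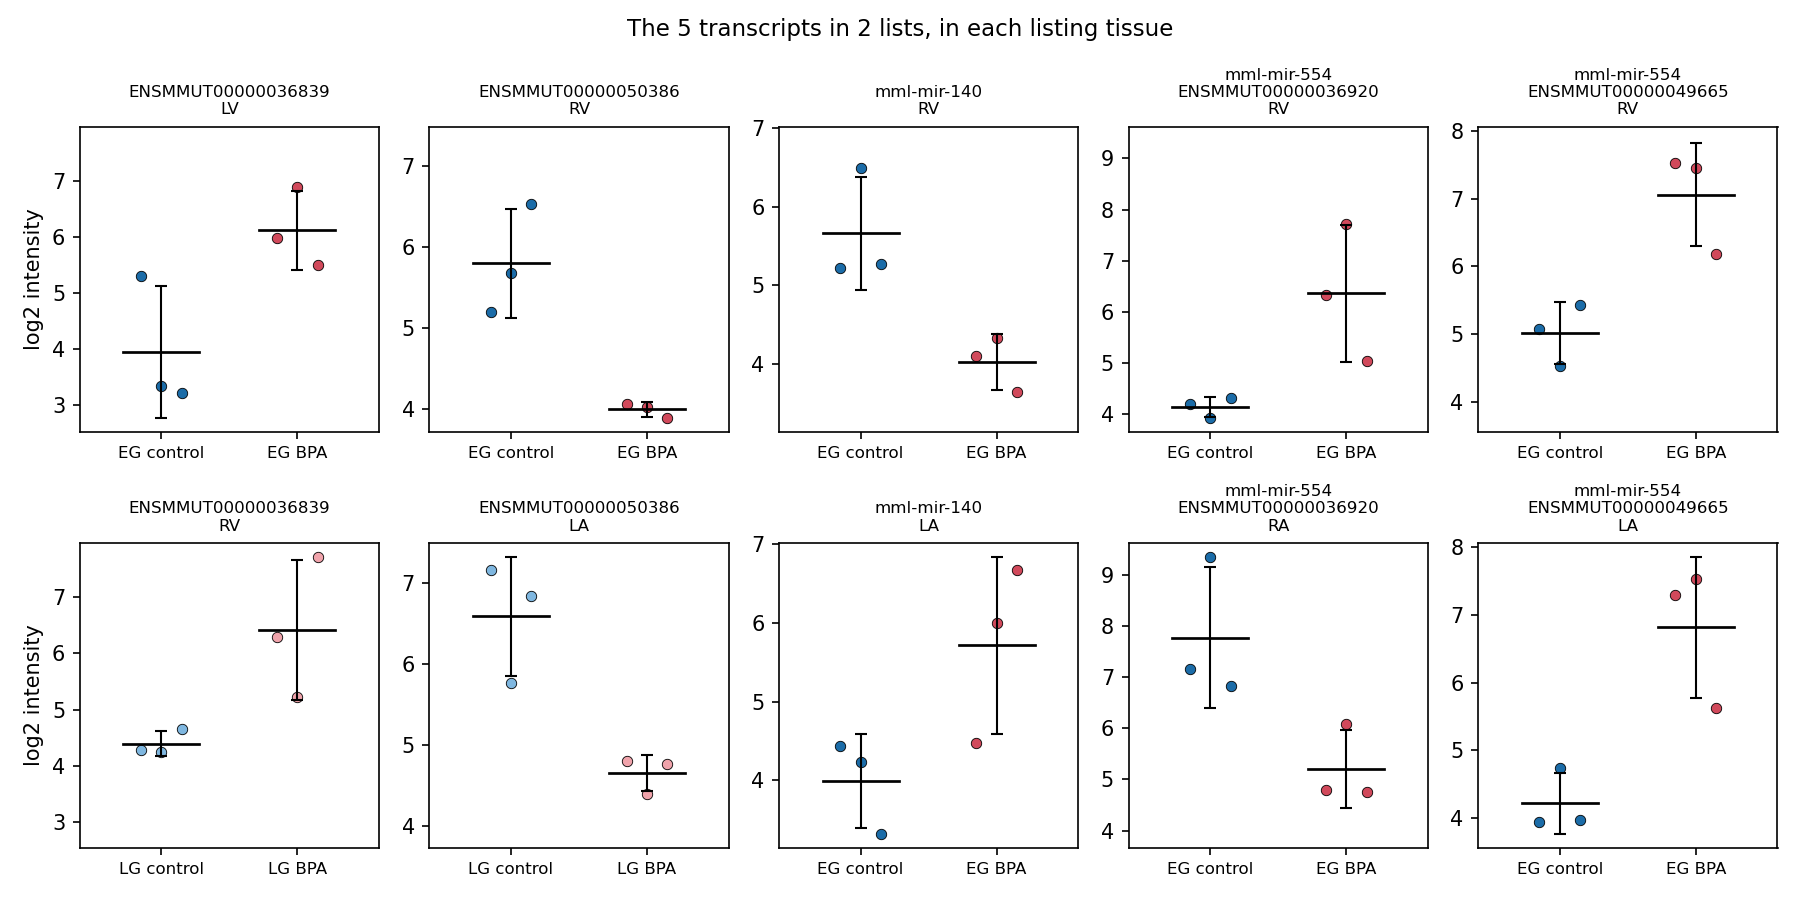
Log2 intensity (y axis) of the 5 transcripts in 2 lists, control against BPA exposed fetuses in the first listing tissue (top) and the second (bottom), with 1 point per fetus, the mean as a bar and the SD as whiskers (n = 3). mml-mir-140 and mml-mir-554 ENSMMUT00000036920 turn direction between the tissues, and the other 3 keep it.

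The largest listed changes of the 51 miRNA transcripts were in LV, where many values lay at the lowest value of the array. In LV 71 to 810 transcripts shared that lowest value on an array, while in RV, LA, RA and BFM no more than 2 did. In LV 23 of the 51 miRNA transcripts held it on at least 1 array, in 56 of 612 values. Of the 18 LV entries, 10 had at least 1 such value among the 6 arrays compared, and in 2 a whole group was there. With all LV values raised to the highest of the 12 lowest values, 14 entries were still past the criteria, 3 were not (mml-mir-194-1, mml-mir-557 and mml-mir-184), and mml-mir-562 no longer passed the filter.

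mml-mir-563 had the largest listed rise among the 51, in LV EG. It was -1.14, 2.06 and -0.89 in controls and 5.96, 4.67 and 5.37 in BPA exposed fetuses (LFC 5.32), with control fetus 3 at the lowest value of its array, and the LFC was 4.23 with low values raised. As deposited, mml-mir-652 had the largest listed fall among them, also in LV EG, a rank not kept with low values raised. It was 2.47, 6.12 and 3.52 in controls and -1.10, -1.02 and -0.10 in BPA exposed fetuses, and these 3 values are the lowest of their arrays, so the LFC of -4.78 has no firm size and was -3.41 with low values raised. In LV as a whole mml-mir-652 was at the lowest value on 8 of 12 arrays.

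In LV LG the largest rise among the 51 was that of ENSMMUT00000048554, from 0.18, 5.55 and 4.28 in controls to 7.50, 6.90 and 6.50 in BPA exposed fetuses (LFC 3.63). Its LFC ran from 2.05 to 4.74 as each fetus was left out, and the entry was lost without fetus 7, 10, 11 or 12. The largest fall among the 51 was that of ENSMMUT00000048424, from 4.91, 7.06 and 7.59 to 3.06, 0.05 and 2.27 (LFC -4.72). Its LFC ran from -5.53 to -3.85 as each fetus was left out. Control fetus 7 was the lowest control in both.

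mml-mir-133c and mml-mir-487a fell in LV LG and had the same 2 exposed fetuses at the lowest value of the array, fetus 10 and fetus 11. mml-mir-133c was 4.51, 2.54 and 4.44 in controls and -1.15, 0.05 and 0.33 in BPA exposed fetuses (LFC -4.08). mml-mir-487a was 2.55, 4.79 and 4.32 in controls and -1.15, 0.05 and 0.73 in exposed fetuses (LFC -4.01). The exposed fetuses were below the controls in both, but the values at the lowest value of the array are only upper limits.

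**Figure D5:**
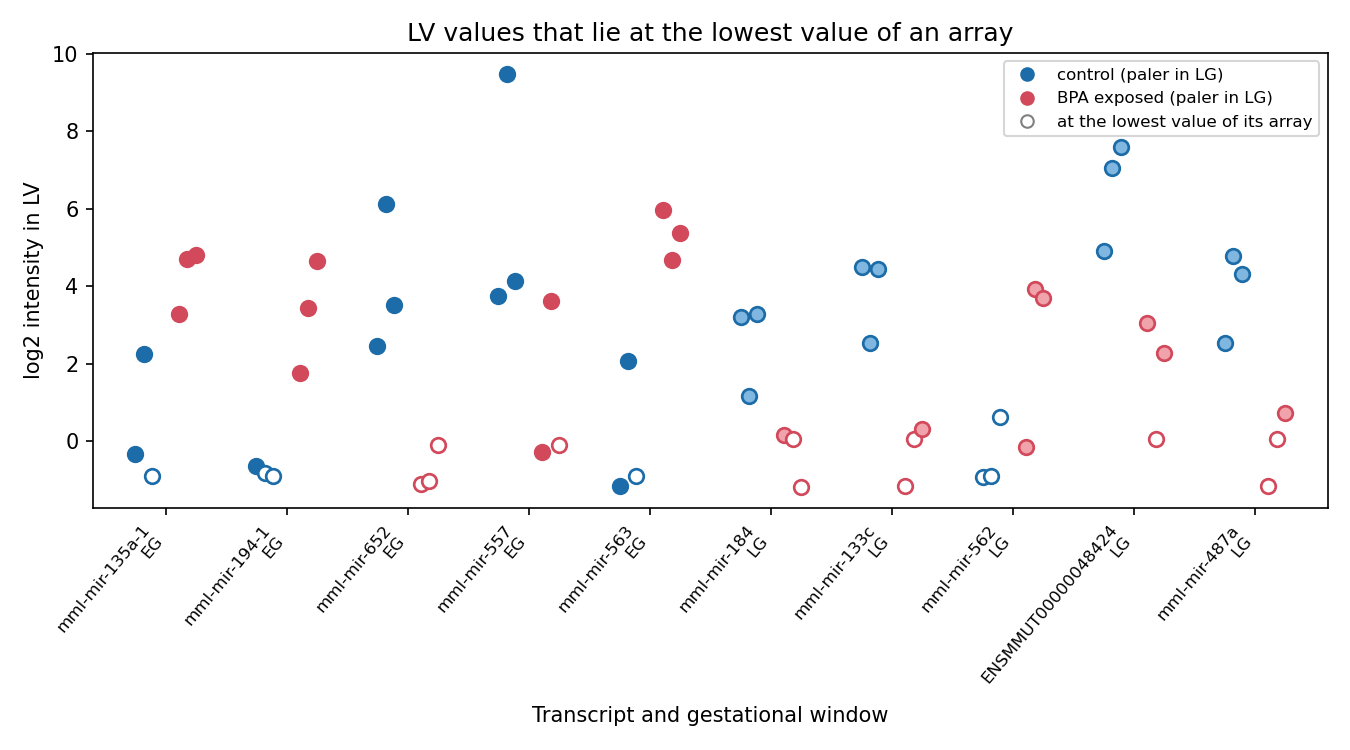
Log2 intensity in LV (y axis) of the 10 listed LV transcripts (x axis, with the window) that had a value at the lowest value of an array, in the 3 control (blue) and 3 BPA exposed (red) fetuses of that window. Open points lie at the lowest value of their array, and all 3 BPA exposed fetuses of mml-mir-652 and all 3 controls of mml-mir-562 are open.

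Several listed miRNAs belong to the mir-15/16 and mir-17-92 groups, which are known for opposite roles in proliferation, mir-15a and mir-16 as brakes of the cell cycle and mir-17-92 as a MYC induced cluster that promotes it. mml-mir-15a rose in LA EG from 3.80, 3.47 and 3.98 in controls to 5.48, 6.06 and 5.44 in BPA exposed fetuses (LFC 1.91). mml-mir-16-2, which lies in SMC4 beside MIR15B, was 4.85, 6.47 and 4.86 in controls and 3.42, 3.96 and 4.05 in exposed fetuses in RV LG (LFC -1.58). The 3 LA EG controls of mml-mir-15a lay below the 5th percentile of the LA arrays, which was 4.02 to 4.05. In RV, mml-mir-16-2 lay below the 5th percentile of the array on 7 of the 12 arrays. mml-mir-15a and mml-mir-16-2 were listed in different chambers and windows.

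mml-mir-18, taken as MIR18A, and mml-mir-20a lie together with MIR17 and MIR19A in the RefSeq annotation. mml-mir-18 was 7.80, 7.49 and 6.06 in controls and 5.94, 3.83 and 4.74 in BPA exposed fetuses in RV LG (LFC -2.28, the largest fall of the 51 in that list). mml-mir-20a was 7.34, 6.44 and 4.34 in controls and 4.34, 3.78 and 3.69 in exposed fetuses in RA LG (LFC -2.11), where the lowest control and the highest exposed fetus were nearly level. These falls are the values that chose both transcripts. In RA LG, where mml-mir-20a was listed, mml-mir-18 was 6.18, 8.07 and 4.56 in controls and 8.39, 7.11 and 7.35 in exposed fetuses. Its LFC there was 1.34 (SE 0.83, limma adjusted p = 0.961) with overlapping groups. In LV LG its LFC was 3.36 (SE 2.21, limma adjusted p = 0.983). Control fetus 7 was there at the lowest value of its array (-0.93). The other controls held 6.60 and 7.34, and the exposed fetuses 7.83, 8.21 and 7.05. In RV LG, where mml-mir-18 was listed, the LFC of mml-mir-20a was -0.38 (SE 0.47, limma adjusted p = 1.00). mml-mir-25, of the related mir-106b-25 cluster, was 6.08, 5.81 and 6.89 in controls and 4.80, 4.22 and 4.77 in exposed fetuses in LA EG (LFC -1.66), with no overlap.

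None of these 5 was called with gestation in a tissue that did not list it, other than mml-mir-25 in RA. For mml-mir-15a the LFC in controls was 0.09 in LV (SE 1.44) and -0.55 in RA (SE 0.62). For mml-mir-16-2 it was -0.20 in LV (SE 1.84) and 0.47 in RA (SE 0.38). For mml-mir-18 it was 0.32 in LV (SE 2.21), 0.93 in LA (SE 1.24), 0.40 in RA (SE 0.83) and -0.79 in BFM (SE 1.25). For mml-mir-20a it was 0.74 in LV (SE 1.58), 0.30 in RV (SE 0.47), 0.63 in LA (SE 0.61) and -0.52 in BFM (SE 0.28). These SEs leave changes of a log2 unit or more undetectable in most of the tissues.

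In RV LG the largest rise of the 51 was that of ENSMMUT00000049708, from 5.10, 4.67 and 6.76 in controls to 7.50, 9.01 and 7.04 in BPA exposed fetuses (LFC 2.34). In LA LG mml-mir-507, of an X-linked cluster with MIR506 and MIR508 beside it, rose from 3.66, 4.89 and 5.36 to 6.06, 6.18 and 7.76 (LFC 2.03), and ENSMMUT00000050906 fell from 8.16, 6.25 and 6.89 to 3.93, 6.26 and 4.49 (LFC -2.21). The groups did not overlap for ENSMMUT00000049708 and mml-mir-507, and for ENSMMUT00000050906 exposed fetus 11 lay level with control fetus 8.

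All 25 miRNA names were matched to a gene of the RefSeq annotation of T2T-MMU8v2.0, with mml-mir-18 taken as MIR18A. Of these, 15 lie inside a protein coding gene and 9 have another miRNA gene within 10 kb. The 25 unnamed miRNAs could not be placed in it by name.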

How the data were processed

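The values were log2 intensities as deposited by the authors, who took NimbleGen probe intensities through RMA tissue by tissue (background correction, quantile normalization, median polish per transcript). Members and lists of transcripts were chosen with earlier results of these data known. Transcript names came from the descriptions in the study's lists, with 4 misspelled identifiers corrected. With R 4.3.3 and limma 3.58.1, 1 model per tissue gave the group means over transcripts with an interquartile range of at least 0.5, on all 12 arrays of the tissue, with Benjamini-Hochberg adjustment over all transcripts tested. BFM and a chamber were compared in 1 fit over 24 arrays. Single transcripts were tested by exact two-sided permutation of 3 against 3 fetuses. The fits were tested on simulated data.

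Fetus numbers pair the tissues because a number is the same animal, and the fit with fetus as a block gave the same number of calls. Deviations from group means correlated between tissues with a median of 0.0716 over all transcripts. Values in every fetus are given for transcripts in 2 lists, for those called in a tissue that does not list them, for the largest rise and fall of members in each list, and for mir-133c and the mir-15/16, mir-17-92 and mir-25 members. Genes of miRNA biogenesis were not analysed here, because the tables used here pair no array transcript with their symbols. Array weights needed statmod 1.5.0. The sample labels give neither the dam nor the exact day of collection of a fetus, so neither was part of a fit. Tables and plots used Python 3.11.15, matplotlib 3.10.9, numpy 2.4.6 and pandas 2.3.3. The alternatives were no filter or a stricter filter on variation, removal of low means, only the arrays compared, a robust prior variance, 2 further normalizations, array weights, raised lowest values, other call rules, each fetus left out and, chosen after seeing the data, the BPA exposed fetuses in place of controls.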

Additional observations from a re-analysis of the deposited data

Results flagged for a closer look

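The change with gestation in controls differed between BFM and a heart chamber, by a test of the difference itself, for 4 transcripts in 8 comparisons. The difference (BFM minus chamber, log2) of mml-mir-487a was -4.80 against RV, -5.53 against LA and -3.27 against RA. That of ENSMMUT00000049642 was -2.92 against LV, -4.55 against LA and -3.30 against RA. That of ENSMMUT00000050843 was 2.73 against LV and that of mml-mir-25 was 2.03 against RA. With limma, 6 of the 8 also had an adjusted p of at most 0.05, and the exceptions were ENSMMUT00000049642 and ENSMMUT00000050843 against LV. Each of these exceptions, and the difference of mml-mir-25 against RA, was also lost when certain single fetuses were left out (1, 2, 7 or 9 for mml-mir-25), and the other 5 were kept without any 1 fetus. The method of preparation of the BFM arrays is not given in the sources used here, and its part in these differences was not tested.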

How the results depend on the processing

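The 9 gestation calls in controls ranged from 6 to 12 over all planned settings (8 to 12 as each fetus was left out), and became 3 in the BPA exposed fetuses, where 8.16% of all tests were called against 8.40% in controls. The 8 calls of BFM minus a chamber ranged from 6 to 11 (6 to 11 as each fetus was left out), with 8 under the replicate block of fetus and 8 in the BPA exposed fetuses. Among the 8, the block lost only the call of ENSMMUT00000049642 against LV, and 1 other pair, higher in BFM, was called under it. The 1 BPA call in a tissue without a listing (0.684% of all tests called) became 0 at an interquartile range of at least 1 (0.921%), 8 with only the arrays compared (0.788%), 8 with array weights (1.35%), 0 at an adjusted p of at most 0.05 (0.0018%) and 2 with no fold threshold (0.742%), and ranged from 0 to 7 as each fetus was left out (0.597 to 1.06%). The cause was not tested, and some of these calls lie in LV, RV or LA, where the lists exclude a call in the setting reported. No named result changed its sign where called. Of 1679 recomputed values of 74 named results, 1330 kept their side of the criteria and 349 lost it. Settings in which a transcript no longer passed the filter before testing are in neither count. All 56 listed entries were lost at an adjusted p of at most 0.05. The falls of mml-mir-487a and ENSMMUT00000049642 in BFM were past the criteria in every setting. The number of arrays, 3 in a group, limits the precision of every value.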
